A study of Mus musculus with 11 samples.

Results

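The genes described here are Flrt2, Flrt3, Chl1, Ncam1, Cntn5, Sdk1, Sdk2 and Cd44, 8 of the 24243 gene symbols listed in the series, which code for adhesion molecules of the cell surface. They were taken by symbol, and each was listed in all 8 tables of UMI (unique molecular identifier) counts from nuclei of mouse trigeminal ganglia, the ganglia that hold the sensory neurons of the face. The uninjured control mice were wild type, labelled C57BL (C57BL/6NCrl in the methods of the study) and more than 6 weeks old, and gave a droplet 10x library and a Drop-seq table. The 4 libraries taken on days 2, 7, 21 and 75 after spared nerve injury came from mice of the same strain and age, in which superficial branches of the infraorbital nerve had been cut on one side (infraorbital transection, IOT) and the ganglion of that side was collected. A further library came from C57BL mice of that age with small cuts to the skin of the face (facial injury). The last came from mice more than 6 weeks old of a mixed FVBN, C57BL and 129 background that carried a Fos-tTA and a tetO-mCherry-2A-Gnaq transgene and had lesions of the head and neck from chronic scratching, the cause of which the study left unclear, so that the genotype and the lesions cannot be told apart. Each library pooled mice of both sexes, 10 for a 10x library, 6 for day 75 and 16 for the Drop-seq table, and the study enriched nuclei with an antibody to the neuronal protein NeuN. Each injury was represented by 1 library, and the uninjured control by 1 10x library and 4 Drop-seq libraries whose nuclei are not told apart, so that injuries were not replicated and the tests below compared nuclei within libraries, with the libraries as the replicates.

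Adhesion molecules of the immunoglobulin superfamily carry immunoglobulin and fibronectin domains outside the cell and hold axons, glia and synaptic partners together by binding to copies of themselves or to other surface proteins. The FLRT proteins carry leucine-rich repeats in place of immunoglobulin domains, bind latrophilins on neighbouring cells and serve as repulsive ligands of the UNC5 receptors. In sensory ganglia such molecules are known for their part in the outgrowth and bundling of axons, in the contact of neurons with satellite glia and in the choice of spinal and brainstem targets. When the axon of a sensory neuron is cut, the neuron switches on a set of transcription factors, among them Atf3, and many genes of axon growth.

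The tables held 40359 nuclei with 132982556 UMIs, from 7735811 to 22003842 per table, and the median nucleus held 1747 to 4178.5 UMIs. Any pair of tables shared 0 to 92 nucleus barcodes over 28 pairs. Levels are given as counts per 1000000 UMIs (CPM) over the nuclei of a group, and their intervals are exact Poisson intervals at 95% that cover counting error only. A nucleus was called marked, as a sign of axon injury, when it held at least 2 UMIs of Atf3, a transcription factor of the injury response, and Sema6a, a semaphorin, together, and unmarked when it held 0. Marked nuclei made up 2.56% of the control 10x library (112 nuclei) and 1.32% of the Drop-seq table (42 nuclei), against 17.9% on day 2 (826 nuclei), 10.8% on day 7 (434 nuclei), 9.05% on day 21 (366 nuclei) and 8.31% on day 75 (302 nuclei). The shares were 2.32% after facial injury (201 nuclei) and 4.10% with scratch lesions (321 nuclei). A nucleus could be marked by Sema6a alone, so that marking does not by itself show a cut axon. In the control 10x library 39 nuclei held Atf3 and 3 held both genes, against 580 and 442 on day 2. On day 75 the numbers were 141 and 80. The median UMI count of marked nuclei was above that of unmarked nuclei in each library, for example 4188 against 3048.5 on day 2. The summed level of 7 satellite glia markers was also higher in marked than in unmarked nuclei in 6 of 6 injury libraries, between 414 and 1057 CPM against 274 and 896 CPM, and that of 7 leukocyte markers was too, between 48.2 and 215 CPM against 38.9 and 166 CPM, a difference whose part in the results was not tested. With the nuclei richest in satellite glia and Schwann cell markers left out, the numbers of adhesion genes called in the injury comparisons below were the same. The other nuclei kept their glia counts, and leukocyte markers were not part of this filter.

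Because the reads were aligned to unspliced transcripts, introns were counted, and a long gene collects more UMIs, so that levels are compared here between nuclei and not between genes. In the GRCm38 build with GENCODE vM21, all 8 genes are protein coding. Flrt3 is the shortest at 20.6 kb (chr2:140650914-140671469, minus strand), of which exons take 23.7%, and Cntn5 is the longest at 1244 kb (chr9:9660891-10904775, minus strand), of which exons take 0.364%. Flrt2 lies at chr12:95692226-95785215 (plus strand), Chl1 at chr6:103510586-103750211 (plus), Ncam1 at chr9:49502136-49798925 (minus), Sdk1 at chr5:141241490-142215586 (plus), Sdk2 at chr11:113776374-114067046 (minus) and Cd44 at chr2:102811141-102901665 (minus). Nearly all of the measured span of these genes is therefore intronic, and Flrt3 is the one with the largest exonic share.

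RefSeq start regions were matched for 7 of the 8 genes in GRCm38.p6. The 250 bases before the start are shown for the 4 genes whose levels differed most with the injury state and passed the test in both kinds of injury, or in IOT alone in the case of Chl1. They are written from 5′ to 3′ on the strand of the gene, and capitals mark CG dinucleotides, the sites of DNA methylation. Flrt3 (chr2:140671477-140671726, minus strand), Chl1 (chr6:103510626-103510875, plus), Sdk1 (chr5:141241284-141241533, plus) and Cntn5 (chr9:10904776-10905025, minus) read as follows.
Flrt3: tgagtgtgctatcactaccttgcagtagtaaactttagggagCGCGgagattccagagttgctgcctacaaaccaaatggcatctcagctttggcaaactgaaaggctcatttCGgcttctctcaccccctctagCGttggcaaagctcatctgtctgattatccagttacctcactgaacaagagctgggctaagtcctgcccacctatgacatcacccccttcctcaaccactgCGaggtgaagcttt
Chl1: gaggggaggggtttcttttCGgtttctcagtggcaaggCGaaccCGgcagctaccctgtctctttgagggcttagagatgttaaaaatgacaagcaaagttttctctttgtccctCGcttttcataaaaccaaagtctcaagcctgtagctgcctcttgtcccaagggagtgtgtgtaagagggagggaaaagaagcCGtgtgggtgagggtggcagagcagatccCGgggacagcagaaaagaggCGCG
Sdk1: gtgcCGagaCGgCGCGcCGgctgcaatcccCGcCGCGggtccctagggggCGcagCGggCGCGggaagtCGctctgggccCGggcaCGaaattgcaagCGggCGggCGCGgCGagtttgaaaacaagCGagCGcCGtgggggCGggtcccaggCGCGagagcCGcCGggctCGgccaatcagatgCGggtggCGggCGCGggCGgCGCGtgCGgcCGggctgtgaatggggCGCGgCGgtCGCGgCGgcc
Cntn5: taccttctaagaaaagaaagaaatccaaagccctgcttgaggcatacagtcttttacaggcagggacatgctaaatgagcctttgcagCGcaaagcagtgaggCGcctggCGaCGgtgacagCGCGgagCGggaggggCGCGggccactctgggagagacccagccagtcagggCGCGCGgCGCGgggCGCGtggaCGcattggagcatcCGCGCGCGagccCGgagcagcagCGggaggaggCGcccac
The start regions of Flrt3 and Chl1 held 5 and 8 CG dinucleotides, and those of Sdk1 and Cntn5 held 44 and 24, beside a median of 6 over 32851 RefSeq start regions of this length and a middle range of 2 to 16. Neither the ATF/CREB motif TGACGTCA, which is its own reverse complement, nor the AP-1 motif TGACTCA, searched on both strands (TGAGTCA on the other), was present in any of the 8 start regions of the 7 genes. Of all start regions, 1.55% held the first motif and 4.46% the second.

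In nuclei marked after IOT, Flrt3, Sdk1, Chl1, Sdk2 and Ncam1 were higher and Cntn5 was lower than in unmarked nuclei of the same libraries, and the 2 remaining genes, Flrt2 and Cd44, did not pass the test. The comparison asks whether nuclei with the marking genes carry other levels of these adhesion molecules than their neighbours. With edgeR, 6 of 8 genes were called at an adjusted p under 0.05, 5 higher and 1 lower, where 17.8% of the 14301 genes tested were called (9.94% higher and 7.85% lower). The median log2 difference over the 8 genes was 0.59, against −0.0038 over all genes tested. In nuclei marked after the milder injuries, Flrt3 and Sdk1 were higher and Cntn5 lower. This is 3 of 8 genes where 2.6% of all genes were called (1.5% higher and 1.1% lower). The 8 genes were chosen with earlier results of these data known, and the genes tested were not matched to them for level. The shares and medians beside all genes therefore describe the list and are no independent support for it.

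**Figure D1:**
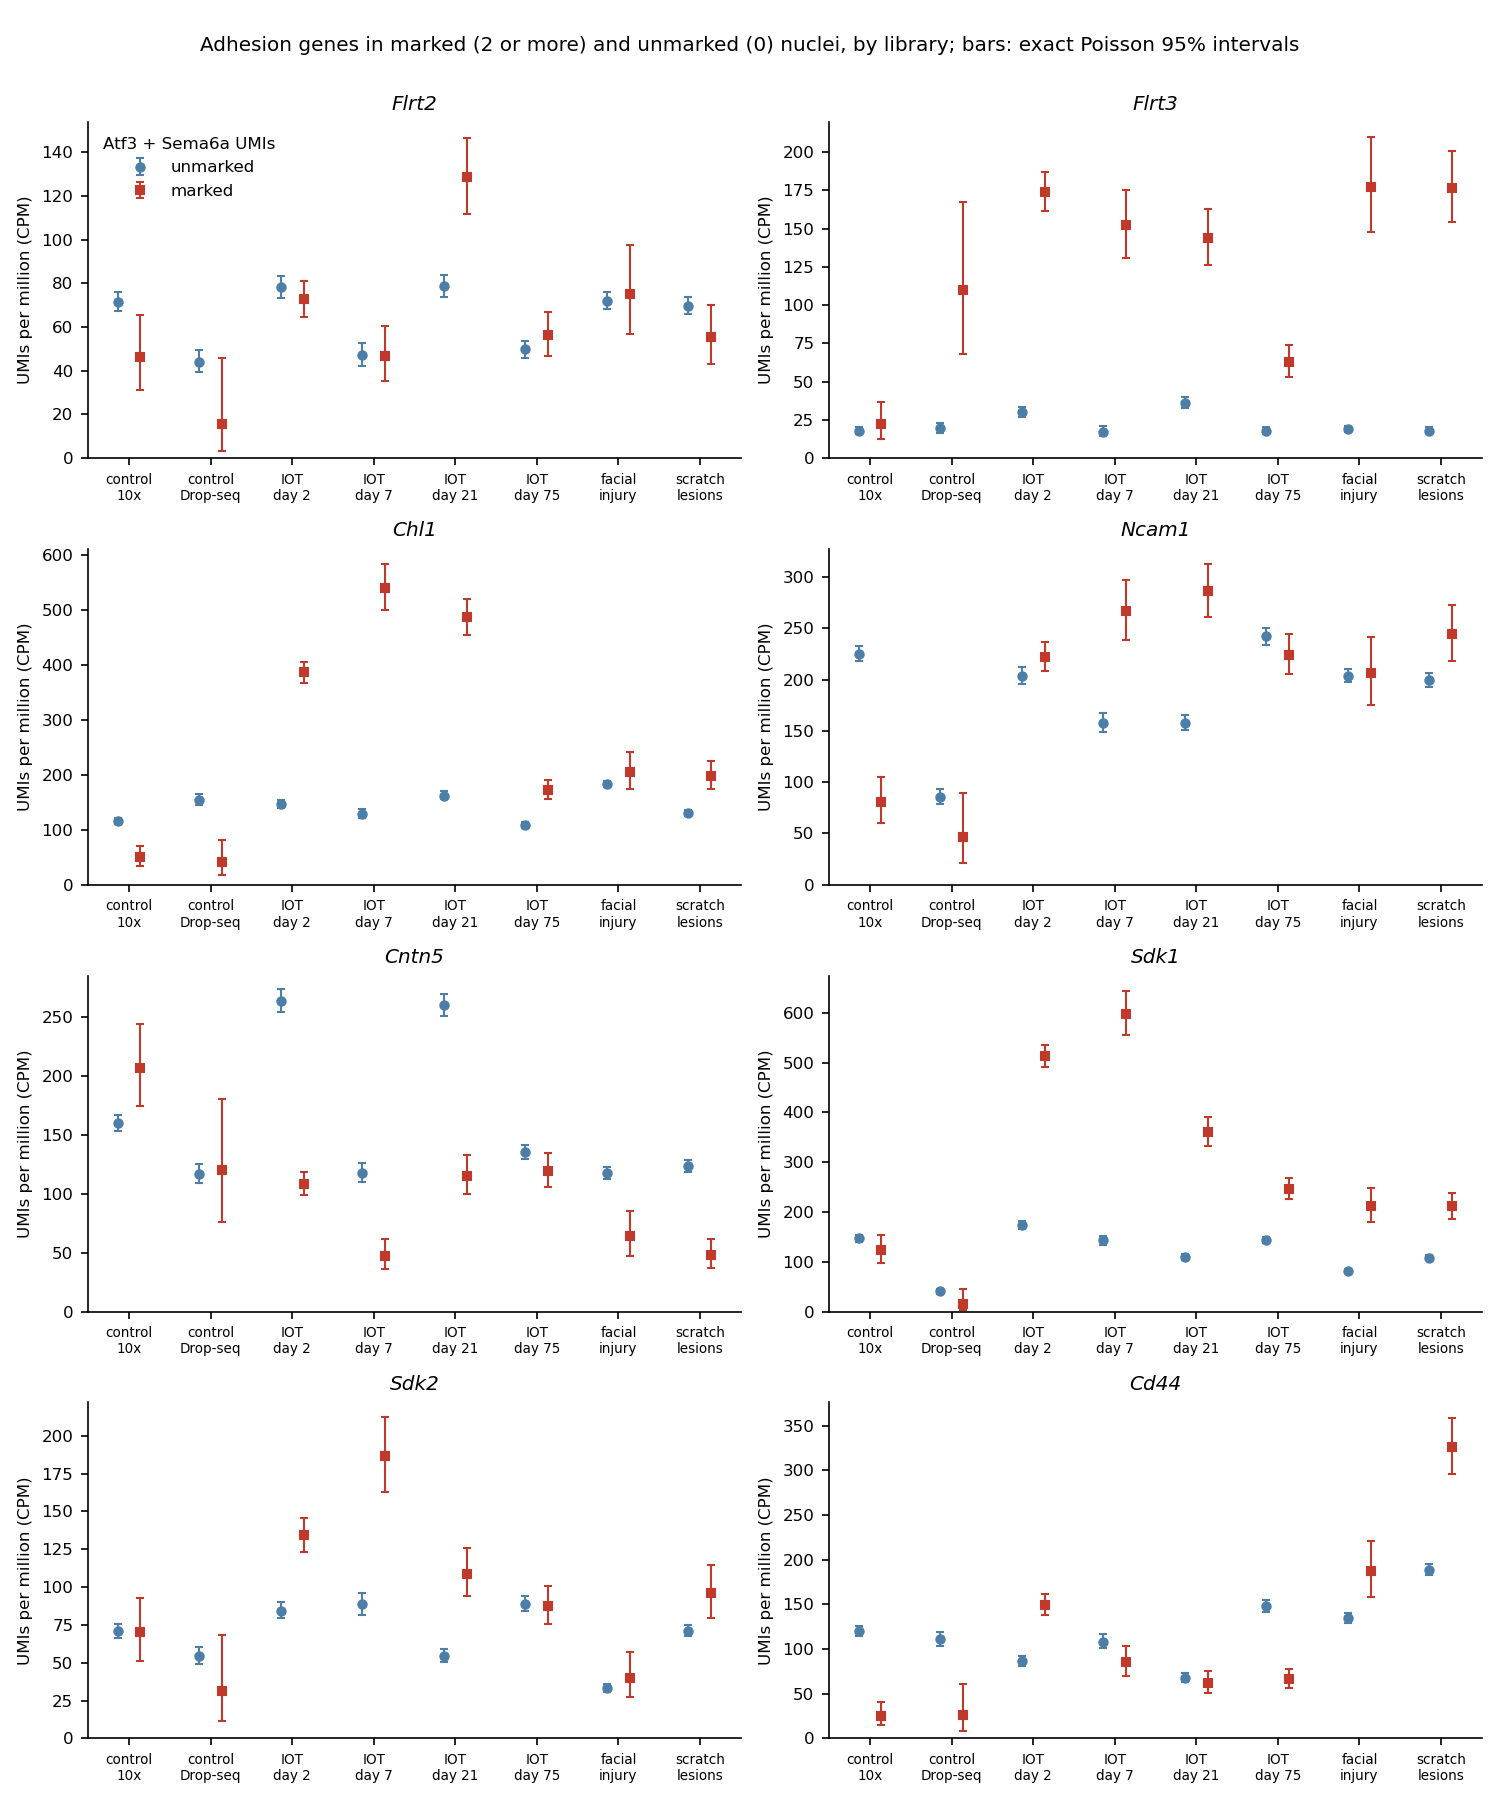
Level of each of the 8 adhesion genes, in CPM, in unmarked and marked nuclei of each library, with exact 95% Poisson intervals of the counts. On day 2 Flrt3 is at 29.8 CPM in unmarked and 174 CPM in marked nuclei, whereas Cntn5 is at 264 and 108 CPM.

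Flrt3 is a leucine-rich repeat protein that binds latrophilins and UNC5 receptors and takes part in FGF and ROBO signalling. Its level in unmarked and marked nuclei was 29.8 and 174 CPM on day 2, 17.3 and 152 CPM on day 7, 36.1 and 144 CPM on day 21, and 17.6 and 62.9 CPM on day 75. After facial injury it was 19.1 and 177 CPM, and with scratch lesions 18.0 and 176 CPM. All 6 marked groups lay above all 6 unmarked groups, and day 75 was the lowest of the marked groups. The log2 difference was 2.41 ± 0.17 (SE) after IOT, higher in 4 of 4 libraries (edgeR adjusted p = 1.17e-06), and 3.24 ± 0.25 after the milder injuries, higher in 2 of 2 (edgeR adjusted p = 1.84e-05). In the uninjured 10x library, the few marked nuclei held 22.3 CPM (12.5 to 36.8) beside 17.9 CPM in unmarked nuclei. In the Drop-seq table of uninjured mice, which entered no test, the 42 marked nuclei held 109.5 CPM (67.8 to 167) beside 19.4 CPM, so that the control tables differed in this respect.

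The share of nuclei with Flrt3 moved in the same way. After each nucleus was thinned to 1143 UMIs, Flrt3 was found in 3.59% of unmarked and 18.4% of marked nuclei on day 2, and in 2.00% and 5.63% on day 75. Without thinning the shares were 10.0% and 48.4% on day 2 and 8.10% and 27.2% on day 75. The C3-like class, in which Flrt3 was lowest, had a thinned share of 1.72% on average over the 10x libraries. Unmarked nuclei of the 6 injury libraries lay between 1.97% and 4.06%, and marked nuclei between 5.63% and 18.4%, so that the groups did not overlap.

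Flrt2, a relative of Flrt3 with the same kinds of partners, moved little. In unmarked and marked nuclei it stood at 78.2 and 72.6 CPM on day 2, 47.3 and 46.6 CPM on day 7, 78.6 and 128 CPM on day 21 and 49.7 and 56.2 CPM on day 75. The values were 71.9 and 75.0 CPM after facial injury and 69.8 and 55.4 CPM with scratch lesions. Day 21 was the one library of the 6 in which the interval of the ratio of marked to unmarked nuclei lay above 1. The log2 difference was 0.25 ± 0.12 after IOT (edgeR adjusted p = 0.183) and −0.16 ± 0.19 after the milder injuries (edgeR adjusted p = 0.769).

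Chl1, the close homologue of the L1 adhesion molecule, is known for its part in axon growth and guidance. Its level in unmarked and marked nuclei was 148 and 387 CPM on day 2, 129 and 541 CPM on day 7, 163 and 487 CPM on day 21 and 108 and 173 CPM on day 75. After facial injury it was 184 and 206 CPM, and with scratch lesions 131 and 199 CPM. The first 3 time points after IOT stood apart from the other marked groups. The log2 difference was 1.49 ± 0.17 after IOT, in 4 of 4 libraries (edgeR adjusted p = 5.58e-05), and 0.38 ± 0.26 after the milder injuries, which did not pass (edgeR adjusted p = 0.545). In the control 10x library marked nuclei held less Chl1 than unmarked nuclei, 50.6 against 116 CPM.

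Ncam1, the neural cell adhesion molecule, binds copies of itself on other cells and carries polysialic acid in growing neurons. It was at 204 and 222 CPM in unmarked and marked nuclei on day 2, 158 and 266 CPM on day 7, 158 and 286 CPM on day 21 and 242 and 224 CPM on day 75. After facial injury the levels were 204 and 206 CPM, and with scratch lesions 199 and 244 CPM. The groups overlapped, and the call after IOT was the weakest of the 6, with a log2 difference of 0.45 ± 0.14 in 3 of 4 libraries (edgeR adjusted p = 0.0441). The milder injuries gave 0.15 ± 0.21 (edgeR adjusted p = 0.803). In the control 10x library marked nuclei held less Ncam1 than unmarked nuclei, 80.4 against 225 CPM. The call was lost when any 1 of days 2, 7 or 21, facial injury or scratch lesions was left out, with log2 differences between 0.31 and 0.63 over all 6 such fits. In marked nuclei outside the injured cluster described below, the log2 difference turned to −0.56.

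Cntn5 codes for a contactin, an immunoglobulin protein held to the membrane by a lipid anchor, and it was the 1 gene of the list that was lower in marked nuclei. Its level in unmarked and marked nuclei was 264 and 108 CPM on day 2, 118 and 47.4 CPM on day 7, 260 and 115 CPM on day 21 and 135 and 120 CPM on day 75. The pairs after facial injury and with scratch lesions were 118 and 64.3 CPM, and 123 and 48.3 CPM. Marked nuclei were lower in 6 of 6 injury libraries, although the unmarked levels differed between libraries and the groups overlapped. The log2 difference was −0.92 ± 0.15 after IOT (edgeR adjusted p = 0.000706) and −1.14 ± 0.25 after the milder injuries (edgeR adjusted p = 0.0286), a call that was lost without either of those 2 libraries. In the control 10x library marked nuclei were not lower, at 207 against 160 CPM. Cntn5 was unevenly spread over nuclei, since the 1% of nuclei with the most UMIs of it held from 23.5% to 31.8% of its UMIs, and 1 nucleus of day 7 held 72.

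Sdk1 and Sdk2 are the sidekick proteins, large immunoglobulin molecules that bind copies of themselves and are known in the retina for matching neurons of the same synaptic layer. Sdk1 stood at 173 and 514 CPM in unmarked and marked nuclei on day 2, 143 and 598 CPM on day 7, 110 and 361 CPM on day 21 and 143 and 247 CPM on day 75. It was at 81.4 and 212 CPM after facial injury and at 108 and 211 CPM with scratch lesions. All marked groups of the injury libraries lay above all unmarked groups of those libraries. In the uninjured tables marked nuclei did not hold more Sdk1. They were at 124 against 147 CPM in the control 10x library and at 15.6 against 40.8 CPM in Drop-seq, and both intervals of the ratio spanned 1. The log2 difference was 1.59 ± 0.16 after IOT, in 4 of 4 libraries (edgeR adjusted p = 2.38e-05), and 1.15 ± 0.25 after the milder injuries, in 2 of 2 (edgeR adjusted p = 0.0260), and the latter call was lost without either of those 2 libraries. On thinned nuclei of day 7, Sdk1 was found in 14.4% of unmarked and 45.3% of marked nuclei, against 22.0% and 65.0% before thinning.

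Sdk2 moved in the same direction as Sdk1 by a smaller amount. Its levels in unmarked and marked nuclei were 84.5 and 134 CPM on day 2, 88.7 and 186 CPM on day 7, 54.6 and 109 CPM on day 21 and 89.0 and 87.4 CPM on day 75. They were 33.2 and 40.2 CPM after facial injury and 71.2 and 95.9 CPM with scratch lesions. Day 75 did not share the difference seen at the first 3 time points. Marked nuclei of the control 10x library held 70.0 CPM of Sdk2 beside 70.9 CPM in its unmarked nuclei, and those of Drop-seq 31.3 beside 54.5 CPM. The log2 difference was 0.73 ± 0.15 after IOT, in 3 of 4 libraries (edgeR adjusted p = 0.00398), and 0.37 ± 0.26 after the milder injuries (edgeR adjusted p = 0.570).

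Cd44 codes for the main receptor of hyaluronan, a polysaccharide of the matrix between cells, and belongs to neither adhesion family. It stood at 86.3 and 149 CPM in unmarked and marked nuclei on day 2, 108 and 85.0 CPM on day 7, 68.0 and 62.4 CPM on day 21 and 148 and 66.0 CPM on day 75. After facial injury it was at 135 and 188 CPM, and with scratch lesions at 189 and 326 CPM. Marked nuclei were thus higher on day 2 and in both milder injuries and lower on days 7 and 75 after IOT. On day 21 the interval of the ratio of marked to unmarked nuclei, 0.743 to 1.13, spanned 1. Marked nuclei of the uninjured 10x library also held less Cd44, 25.3 against 120 CPM, as did those of Drop-seq, 26.1 against 111 CPM. The log2 difference did not pass in either injury, with −0.11 ± 0.23 after IOT (edgeR adjusted p = 0.815) and 0.64 ± 0.30 after the milder injuries (edgeR adjusted p = 0.346).

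**Figure D2:**
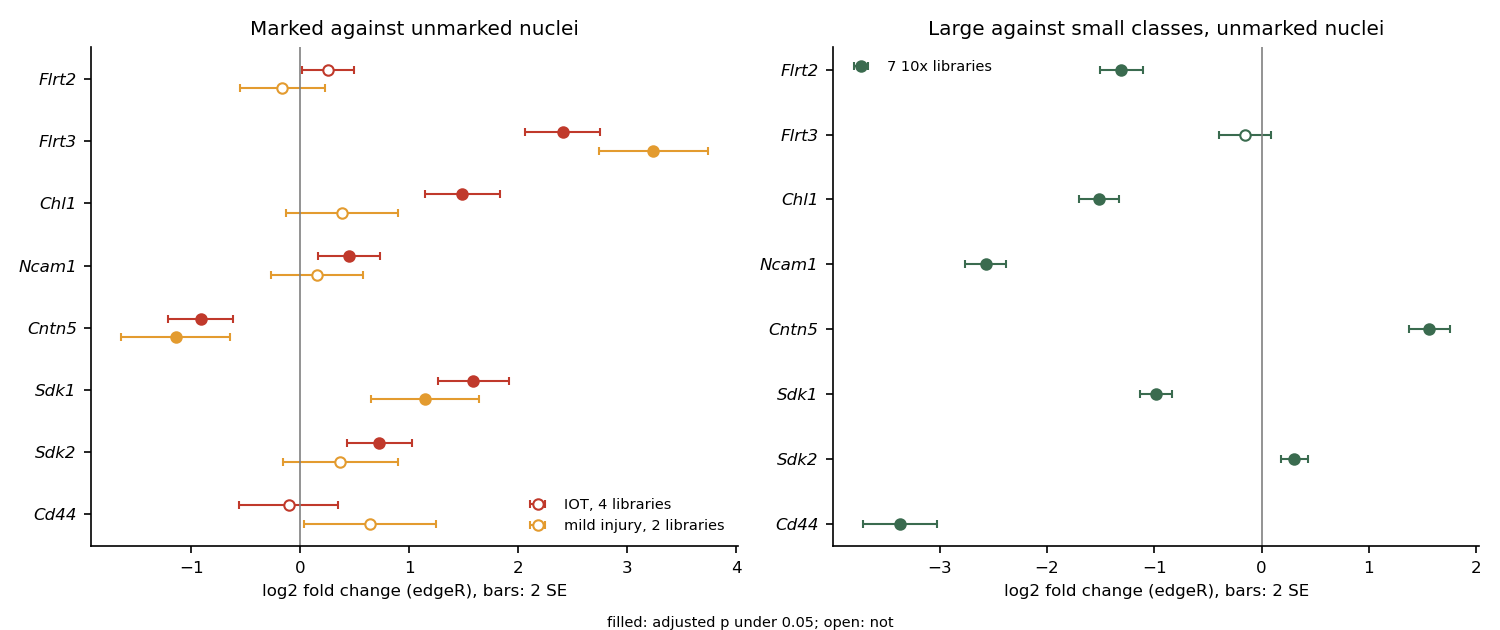
Log2 difference of each gene between marked and unmarked nuclei (left, IOT and milder injuries) and between large and small classes of unmarked nuclei (right), with points for the edgeR estimates, bars of 2 standard errors to each side and filled points for calls at an adjusted p under 0.05. Flrt3 has the largest injury differences, 2.41 after IOT and 3.24 after the milder injuries, and Cntn5 the lowest, and on the right Cd44 lies at −3.37.

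The difference between the 2 kinds of injury was itself tested. With edgeR, 0 of 8 genes were called, where 0.014% of all genes were called (0.00699% in each direction), and 2 of the 8 had an unadjusted p under 0.05. Chl1 differed by 1.11 ± 0.31 on the log2 scale in the direction of IOT (adjusted p = 0.708) and Flrt3 by −0.83 ± 0.29 in the direction of the milder injuries (adjusted p = 0.808), and DESeq2 called 0 of 8 as well. The effect of Chl1 in IOT is therefore not shown to differ from that in the milder injuries, nor are the effects shown to be alike.

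Over the 4 time points after IOT, the difference of marked against unmarked nuclei was fitted against the doubling of days. For 1 of the 8 genes the slope was called, where 0.0489% of all genes were called. This was Cd44, whose log2 difference dropped by 0.36 ± 0.05 per doubling of days (edgeR adjusted p = 0.0237). Its log2 ratio of marked to unmarked nuclei was 0.79, −0.35, −0.12 and −1.17 on days 2, 7, 21 and 75, not a steady fall. From day 21 to day 75 marked nuclei went from 62.4 to 66.0 CPM, and unmarked nuclei from 68.0 to 148 CPM. The slope was not called without day 75, facial injury or scratch lesions, whereas without day 2 the slopes of 7 of the 8 genes were, 6 of them falling, in a fit that called 280 rising and 273 falling slopes among 13911 genes. For Flrt3, Sdk1, Chl1 and Sdk2 the slopes were −0.19, −0.17, −0.16 and −0.14, and for Cntn5 0.17 ± 0.05 (edgeR adjusted p = 0.317), and none of these passed. Both state and time were taken from 1 library per day, so that day and library cannot be told apart.

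The share of marked nuclei that lay in the injured cluster differed between libraries. Nuclei of all tables were clustered together without the 8 genes or the marking genes, and 1 cluster of 1830 nuclei carried injury markers such as Sox11 and Gal, injury-induced genes of sensory neurons. It held 0.893% of the marked nuclei of the control 10x library and 21.4% of those in Drop-seq, 65.0% on day 2, 85.0% on day 7, 56.3% on day 21, 27.2% on day 75, 41.3% after facial injury and 41.1% with scratch lesions. Day 75, at which Flrt3, Sdk1 and Chl1 differed least after IOT, had the lowest of these shares among the injury libraries. The marked nuclei that lay elsewhere on day 75 were 220 of 302, and 20.2% of the marked nuclei of that day were C4/C6-like. In the uninjured 10x library 40.2% of the marked nuclei were C4/C6-like, as were 20.1% of all its nuclei.

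Among marked nuclei within the injured cluster, day 75 was not the lowest day after IOT for Flrt3 and lay beside day 21 for Sdk1. For Chl1 day 75 remained the lowest. The part of the cluster share in the day 75 values was not tested. Flrt3 was at 249, 179, 230 and 211 CPM on days 2, 7, 21 and 75, and at 386 and 345 CPM after facial injury and with scratch lesions. Sdk1 was at 709, 680, 579 and 577 CPM over the days and at 378 and 321 CPM in the milder injuries. Chl1 was at 563, 631, 853 and 445 CPM over the days and at 357 and 324 CPM in the milder injuries. These are levels of single libraries, whose unmarked nuclei differ as well. With all nuclei of the cluster set against all other nuclei of their library in place of the marking, the differences between IOT and the milder injuries were 1.195 ± 0.19 for Chl1 (edgeR adjusted p = 0.000833) and −0.86 ± 0.22 for Flrt3 (edgeR adjusted p = 0.0419), and 0.49 ± 0.185 for Sdk1 (edgeR adjusted p = 0.254), which was called under none of 18 alternatives.

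**Figure D3:**
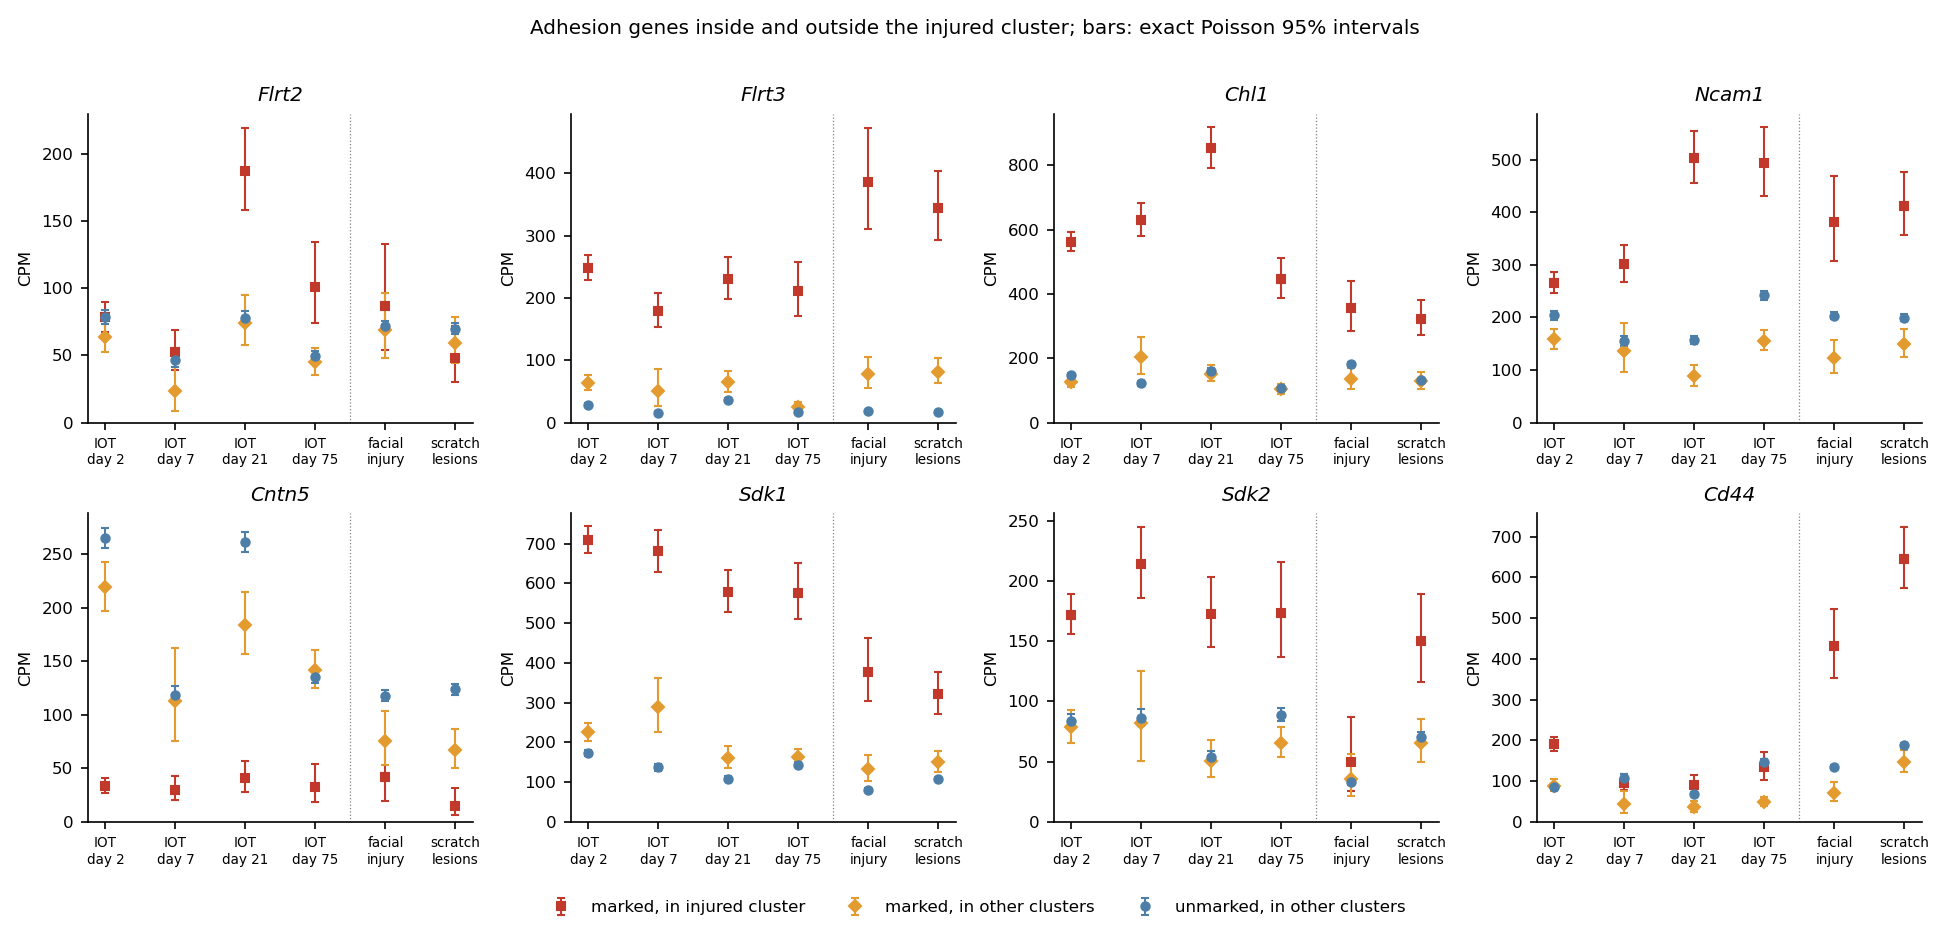
Level of each gene, in CPM, in marked nuclei inside the injured cluster and in marked and unmarked nuclei outside it, for each injury library, with exact 95% Poisson intervals of the counts. On day 75 Flrt3 is at 211 CPM inside and 25.2 CPM outside the cluster, and Cntn5 at 32.9 and 142 CPM.

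Cntn5 was low in the cluster in each injury library. Ncam1 was at 265, 301, 503 and 493 CPM over days 2 to 75 and at 382 and 413 CPM in the milder injuries. Cntn5 was at 33.3, 29.98, 40.7 and 32.9 CPM over the days and at 41.5 and 15.2 CPM in the milder injuries. Marked nuclei outside the cluster held Cntn5 at 219, 113, 184 and 142 CPM over the days. Sdk2 was at 172, 214, 173 and 173 CPM over the days, and at 49.8 CPM after facial injury and 150 CPM with scratch lesions. When only nuclei outside the cluster were compared, the log2 difference of Chl1 after IOT was −0.045 and that of Sdk2 −0.24, whereas Flrt3 stood at 63.5 CPM in marked nuclei outside the cluster on day 2, above the 29.8 CPM of unmarked nuclei.

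Cd44 in the cluster was highest in the libraries in which the markers of the C13-like class were highest there. It was at 190, 96.1, 91.2 and 134 CPM over days 2 to 75, at 431 CPM after facial injury and at 645 CPM with scratch lesions, and the summed level of the C13 markers listed in each table (6, but 5 on day 7 and with scratch lesions) in the cluster was 316, 151, 156, 448, 701 and 1004 CPM in the same order. C13-like neurons are nociceptors that carry the receptor Mrgprd, and they also held the most Cd44 among unmarked nuclei. Day 75 did not keep this order, with more of the C13 markers than day 2 but less Cd44. In the same order of libraries, the C7-10 markers were at 403, 334, 404, 472, 1323 and 1270 CPM. The C3 markers were at 146, 118, 180, 209, 393 and 405 CPM. The markers of the C1/2, C4/C6, C5, C11 and C12 classes were not highest in both milder injuries. The part of the class mix in the Cd44 values was not tested. Flrt2 was at 78.3, 52.7, 187 and 101 CPM over the days and at 87.1 and 47.8 CPM in the milder injuries.

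Levels also moved with the number of Atf3 and Sema6a UMIs in a nucleus. On day 2, Flrt3 was at 29.8 CPM in nuclei with 0 such UMIs, 31.6 with 1, 62.9 with 2, 135 with 3 to 4 and 236 with 5 or more. With scratch lesions the same steps gave 18.0, 28.5, 68.0, 118 and 367 CPM, and on day 75 they gave 17.6, 17.8, 22.5, 61.1 and 164 CPM. In these 3 libraries nuclei with 1 or 2 marker UMIs were thus far from the level of those with 5 or more. Chl1 on day 75 was at 108, 105, 116, 147 and 354 CPM and Sdk1 at 143, 145, 179, 204 and 486 CPM, while Cntn5 went from 135 CPM at 0 through 184 CPM at 2 to 32.0 CPM at 5 or more. Nuclei with more UMIs in all have more chances to reach a step, and the steps were not thinned.

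**Figure D4:**
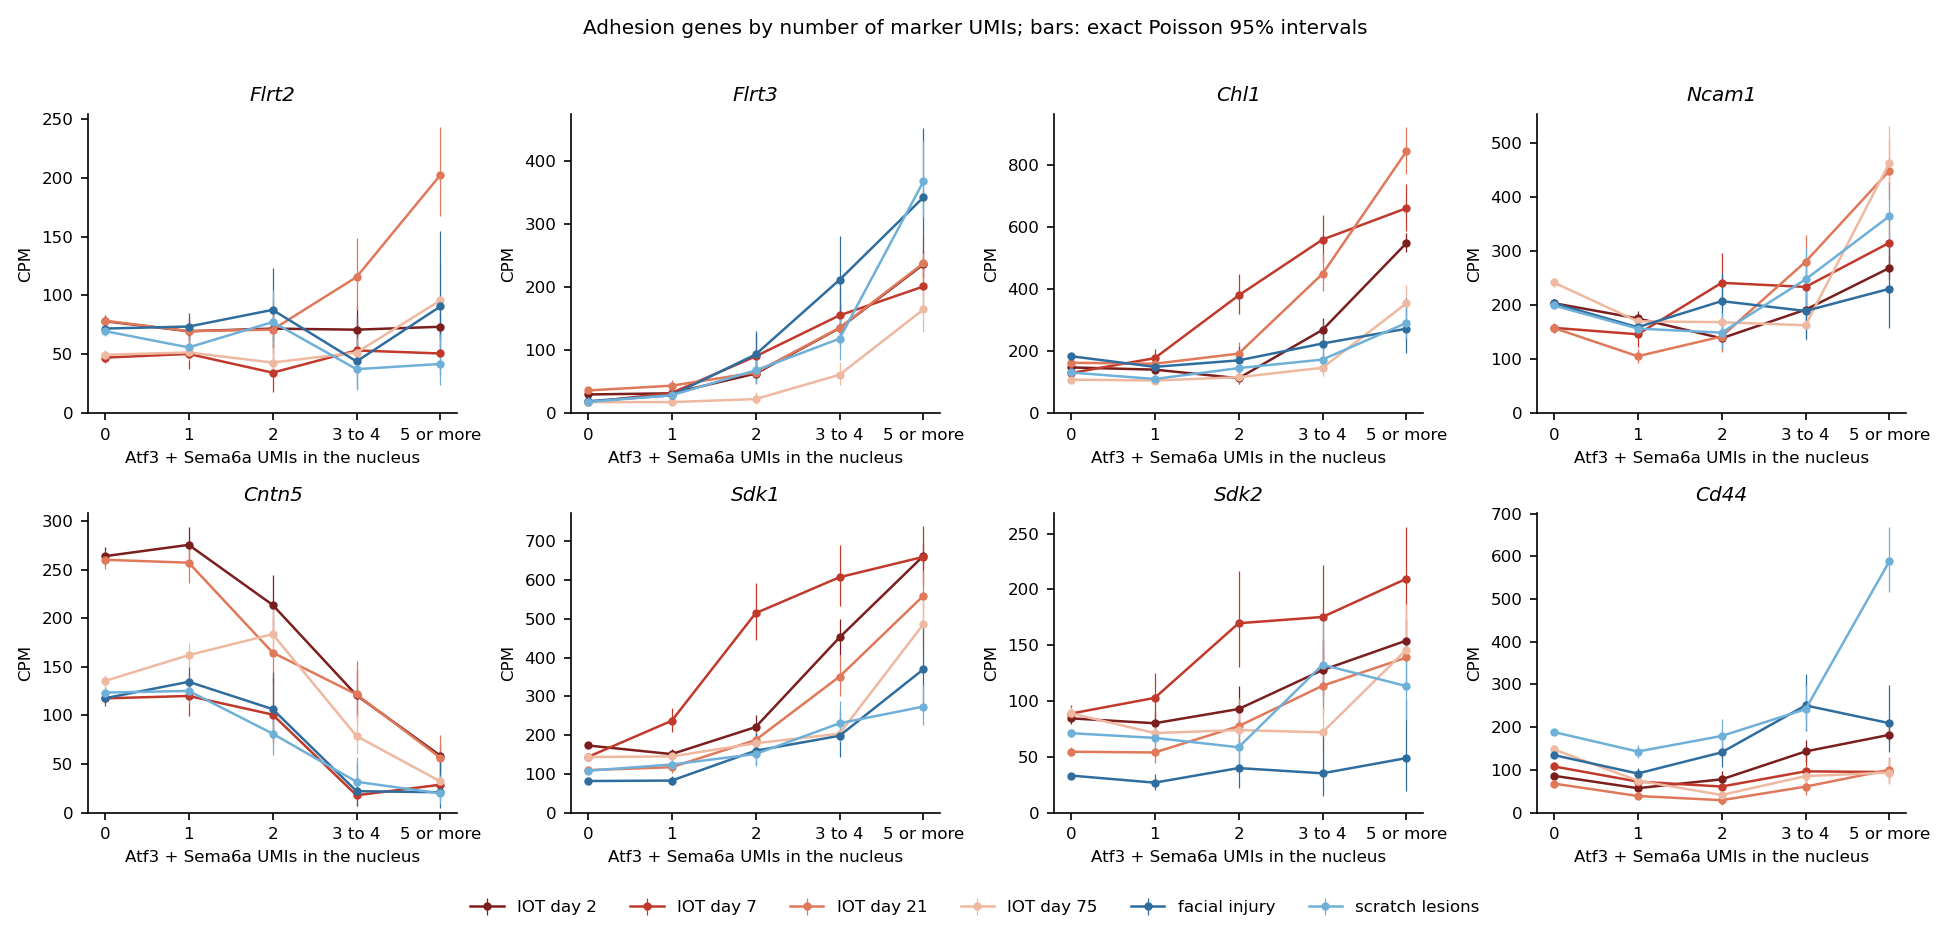
Level of each gene, in CPM, against the number of Atf3 and Sema6a UMIs in a nucleus (0, 1, 2, 3 to 4, 5 or more), with 1 line for each injury library and exact 95% Poisson intervals. Flrt3 on day 2 goes from 29.8 CPM at 0 to 236 CPM at 5 or more.

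In the injury libraries, nuclei with 3 or more of the 8 genes were more frequent among marked than among unmarked nuclei. Since 5 of the 8 genes were higher in marked nuclei after IOT, this is not a result separate from those differences. Joint detection beyond the levels of the single genes was not tested. After thinning, 3 or more of the 8 genes were found in 5.83% of unmarked and 19.5% of marked nuclei on day 2, 3.87% and 20.8% on day 7, 3.97% and 21.9% on day 21 and 5.22% and 8.94% on day 75. The shares were 3.98% and 16.4% after facial injury and 4.15% and 16.04% with scratch lesions. In the control 10x library they were 4.90% and 1.79%, the opposite order, and in the Drop-seq nuclei 1.89% and 4.88%, the latter over 41 marked nuclei, so that the uninjured tables did not share a direction.

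The neuron classes of unmarked nuclei differed in these genes, each in its own way. Classes were named from markers that include none of the 8 genes: 12 of 19 clusters, with 25859 nuclei, could be named, the injured cluster among them, and 14500 nuclei in 7 clusters are called by their leading genes. Levels are means ± SD over the 7 10x libraries. These values are a description, since the clusters were drawn from other genes of the same nuclei.

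Cd44 and Flrt2 were each highest in 1 class, clear of the next. Cd44 was at 619 ± 89 CPM in the C13-like class, from 484 to 742 over the libraries, and the next class, the peptide-expressing C7-10-like nociceptors, was at 210 ± 19 CPM with no overlap. The remaining classes went down to 21.4 CPM in the cluster led by Spint2 and Grm8. On thinned nuclei Cd44 was found in 49.9% of C13-like and 2.56% of C5-like nuclei. Flrt2 was at 243 ± 49 CPM in the C1/2-like class, the cold-sensing neurons with Trpm8, from 177 to 296, with no overlap with the next, the cluster led by Adarb2 and Brinp3 at 129 ± 46 CPM, and it was lowest in the C3-like class at 18.4 CPM.

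Ncam1 was highest in 4 of the small classes. It was at 584 ± 91 CPM in C3-like, 485 ± 59 CPM in C7-10-like, 462 ± 90 CPM in C12-like and 376 ± 62 CPM in C13-like nuclei, and these neighbours overlapped. The small C11-like and C1/2-like classes, at 140 ± 34 and 139 ± 23 CPM, lay at the level of the large C5-like class at 135 ± 35 CPM. The lowest levels included 53.3 CPM in C4/C6-like nuclei, the large mechanosensory neurons with S100b and Nefh, and 52.3 CPM in the cluster led by Zfpm2 and Col19a1. Chl1 was highest in clusters without a class name, at 356 ± 73 CPM in that led by Bmpr1b and Kcnt2, 281 ± 68 CPM in that led by Chrna7 and Creg2 and 270 ± 49 CPM in that led by Spint2 and Grm8, followed by the C7-10-like class at 187 ± 38 CPM. All neighbours in the order of Chl1 overlapped, and it ended at 31.1 CPM in the cluster led by Ikzf1 and Adcy8.

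The sidekick genes did not share their classes. Sdk1 was highest in C7-10-like nuclei at 342 ± 86 CPM and in C5-like nuclei at 310 ± 80 CPM, and lowest in C4/C6-like nuclei at 51.6 CPM. Sdk2 was highest in C5-like and C3-like nuclei, at 188 ± 47 and 188 ± 42 CPM, followed by the cluster led by Adarb2 and Brinp3 at 161 ± 44 CPM, and lowest at 25.6 CPM in the cluster led by Bmpr1b and Kcnt2. C5-like nuclei, which carry Ntrk2, were high in both genes. In C7-10-like nuclei Sdk2 was low, at 51.8 ± 15 CPM.

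By their means, the classes fell into a high and a low block for Cntn5, but the blocks overlapped over single libraries. In 8 classes, from the cluster led by Chrna7 and Creg2 at 285 ± 121 CPM through C4/C6-like nuclei at 209 ± 112 CPM to C1/2-like nuclei at 162 ± 43 CPM, neighbours overlapped, and there was no overlap between the last of these and the next, at 56.2 ± 21 CPM. Over single libraries, however, C4/C6-like nuclei of the high block went down to 84.3 CPM, and C7-10-like nuclei of the low block reached 112 CPM. The lowest level was 24.8 CPM in C11-like nuclei. Flrt3 was the flattest of the 8, from 34.2 CPM in the cluster led by Ikzf1 and Adcy8 to 12.1 CPM in C3-like nuclei, with overlap between all neighbours. No class mean of unmarked nuclei came near the 144 CPM or more that marked nuclei held on days 2 to 21. In 1 library, however, the cluster led by Ikzf1 and Adcy8 reached 89.5 CPM, above the 62.9 CPM of marked nuclei on day 75.

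**Figure D5:**
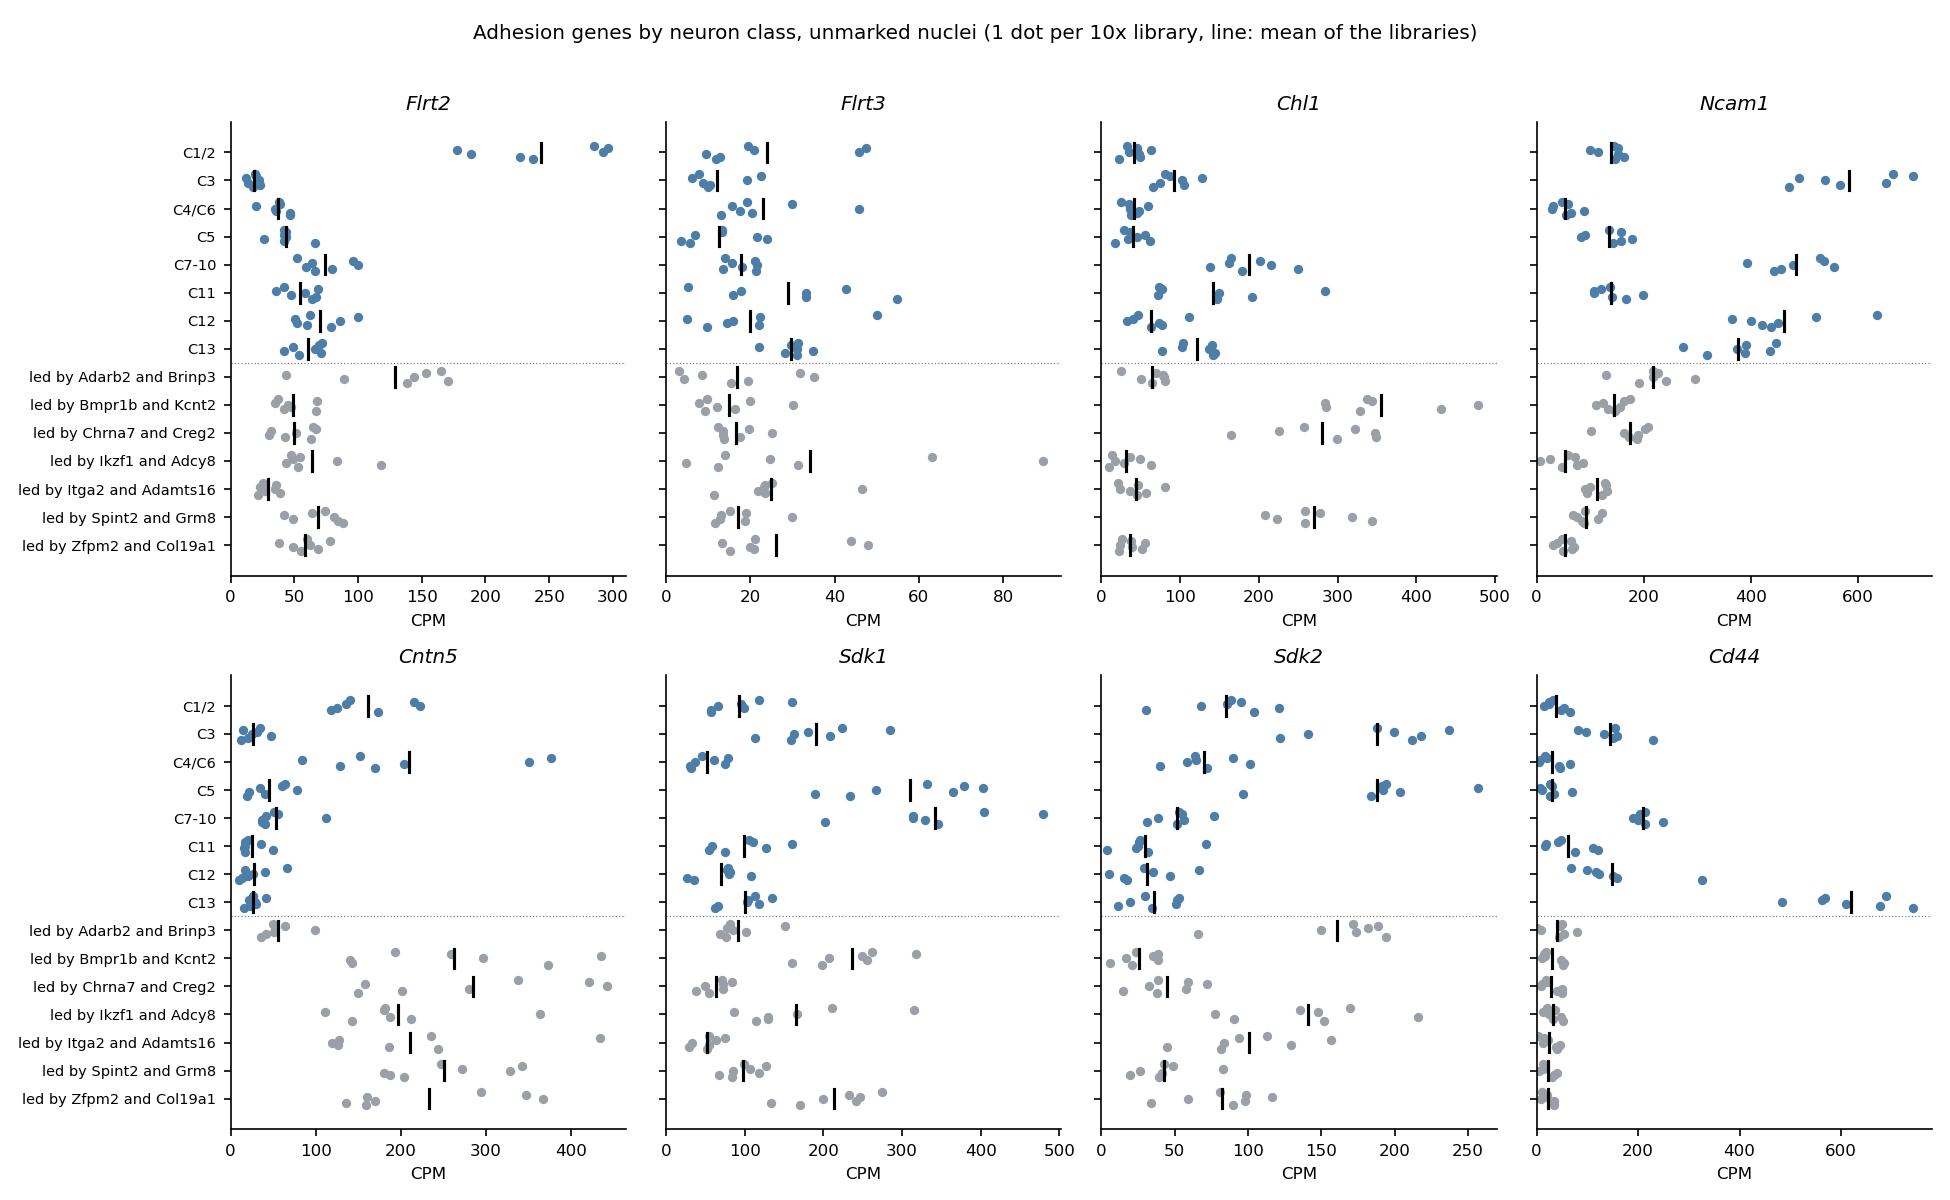
Level of each gene, in CPM, in unmarked nuclei of each neuron class, with 1 point for each of the 7 10x libraries and a line at the mean; clusters without a class name are in grey. Cd44 stands at 619 CPM in C13-like nuclei against 210 CPM in the next class, whereas the class means of Flrt3 lie between 12.1 and 34.2 CPM.

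Large classes (C4/C6-like and C5-like) were then tested against the small classes within the 7 10x libraries, on genes that had not been used for clustering. The 7 clusters without a class name, with 14500 nuclei, entered neither side. The clusters highest in Chl1 and in Cntn5 were among them, so that the test speaks for the named classes alone. With edgeR, 7 of 8 genes were called, 2 higher and 5 lower in large classes, where 56.9% of the 11258 genes tested were called (28.9% higher and 28% lower). Cd44 differed by −3.37 ± 0.17 (adjusted p = 1.52e-13) and Ncam1 by −2.57 ± 0.09 (adjusted p = 4.09e-16), each in 7 of 7 libraries. In the control 10x library Cd44 was at 17.6 CPM in large and 306 CPM in small classes, and Ncam1 at 58.5 and 435 CPM. Chl1 was lower in large classes by a log2 difference of −1.51 ± 0.09, Flrt2 by −1.31 ± 0.10 and Sdk1 by −0.98 ± 0.07, each in 7 of 7 libraries. Cntn5 was higher by 1.57 ± 0.10 in 7 of 7 libraries, with 141 CPM in large and 58.9 CPM in small classes of the control 10x library. Of the large classes, however, C5-like nuclei held 45.5 ± 23 CPM on average, below the small C1/2-like and C7-10-like classes, and C4/C6-like nuclei 209 ± 112 CPM. Sdk2 was higher by 0.31 ± 0.06 in 6 of 7 (edgeR adjusted p = 0.000270). For Flrt3 the difference was −0.15 ± 0.12 (edgeR adjusted p = 0.297). The direction of Cntn5 turned to −0.51 with coarser clusters and that of Sdk2 to −0.057 with finer ones.

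Over whole libraries the 8 genes ranged between 1.37-fold and 3.35-fold among the 7 10x libraries. Flrt3 was lowest in the control 10x library at 18.4 CPM and highest on day 2 at 61.7 CPM, the library with the most marked nuclei, and Chl1 was likewise lowest in the control at 111 CPM and highest on day 2 at 199 CPM. Sdk1 went from 86.0 CPM after facial injury to 244 CPM on day 2. The control tables differed from each other by more than some injuries did, since Sdk1 was at 143 CPM in the 10x library and 39.7 CPM in Drop-seq, and Ncam1 at 211 and 81.7 CPM. Method and mice cannot be told apart in that difference.

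Known partners of these proteins were counted in the same IOT test, where 17.8% of all genes were called. Of 15 FLRT partners, 4 were higher and 5 lower in marked nuclei, with a median log2 difference of −0.093. Unc5c, a netrin receptor of the UNC5 family, was higher by 0.69 ± 0.10 on the log2 scale, at 461 CPM in marked and 298 CPM in unmarked nuclei on average, and Robo1, a SLIT receptor, by 0.46 ± 0.08. Tenm2 and Tenm1, teneurins that bind latrophilins together with FLRT proteins, were lower at −0.81 ± 0.13 and −0.74 ± 0.10. After the milder injuries 1 of the 15 was called, which was Tenm1 at −1.35.

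Of 9 genes of the L1 family and its partners, 2 were higher and 2 lower after IOT, with a median of −0.0097. Ptprd, a receptor phosphatase of axons, was higher by 0.41 ± 0.09, while its relative Ptprf was lower at −0.64 ± 0.12 and the semaphorin co-receptor Nrp1 at −0.37 ± 0.11. Among 6 NCAM partners, with a median of 0.12 and 1 call each way, Gap43, a protein of growth cones, was higher by 1.11 ± 0.16, at 393 against 180 CPM on average, and Ncam2 was lower at −0.35 ± 0.09. Neither list had a call after the milder injuries.

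Of 17 contactins and partners, 1 was higher and 5 were lower after IOT, with a median of −0.11. Cntnap4 and Cntnap5a, relatives of the contactin-binding protein Caspr, were lower at −1.26 ± 0.14 and −0.89 ± 0.12, and the same list had 0 higher and 3 lower after the milder injuries. Of 6 tested relatives and scaffolds of the sidekicks, 3 were lower and 0 higher, with a median of −0.22. These were Magi3 at −0.74 ± 0.08, Magi1 at −0.71 ± 0.09 and Magi2 at −0.30 ± 0.07, scaffold proteins that bind the sidekick tails. Of 6 tested ligands and linkers of CD44, Spp1, the secreted ligand osteopontin, was the 1 called and was higher by 0.81 ± 0.14, and the median of the list was 0.081.

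Of 31 other immunoglobulin adhesion genes tested, 2 were higher and 9 lower after IOT, with a median of −0.13. Mcam and Mdga1 were higher by 0.70 ± 0.12 and 0.53 ± 0.09. Cadm1, a synaptic adhesion molecule, was lower at −1.26 ± 0.10, with 523 CPM in marked and 1239 CPM in unmarked nuclei on average, and Igsf21 at −1.09 ± 0.18.

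Over 56 sums of named classes in the 10x libraries, the genes whose log2 levels followed each member most closely were sought among 10020 genes. Cd44 followed Scd1 with a Pearson r of 0.92 and Ptprt with 0.88, Cntn5 followed Gria2 with 0.88 and Ndst4 with 0.84, Ncam1 followed Arhgap26 with 0.85 and Bach2 with 0.81, and Sdk2 followed Ak5 with 0.85 and Pde4d with 0.81. For Sdk1 the closest were Pld5 and Gria1 at 0.78, for Chl1 Kbtbd11 at 0.77 and Zc3hav1 at 0.76, and for Flrt2 Runx1t1 at 0.77 and S100a4 at 0.75. Flrt3 had the weakest likeness, with Supt3 at 0.60 and Rngtt at 0.55. The sums share libraries and classes, and most of these genes were used to draw the classes, so that the values are a description.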

How the data were processed

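Nuclei of trigeminal ganglia were sequenced by 10x and Drop-seq. The authors aligned the reads to mm10 pre-mRNA, so that introns were counted, removed non-neuronal clusters and deposited whole-number UMI counts per gene and nucleus. STAR 2.5.3a, Seurat 2, Cell Ranger 2.1.0 and bcl2fastq 2.17 are listed in the submitters' processing notes. The 4 Drop-seq libraries share a table in which nuclei are not tied to libraries, and it was described but not tested. Doublets were not called here.

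The 8 genes, the partner lists and the tests were chosen with earlier results of these data known. Other lists name up to 2 genes each way with the largest change at an adjusted p under 0.05, at least 10 CPM and the same direction in 4 of 4 IOT libraries, and each member the 2 genes with the highest Pearson r. Counts were summed per library and injury state (12 sums of the 6 injury libraries) and tested with edgeR 4.0.16 (quasi-likelihood, TMM scaling, filterByExpr, Benjamini-Hochberg adjustment over all genes) with library as a block, and large against small classes over 14 sums. Standard errors are the log2 difference divided by the square root of F. The spread is that between libraries of pooled mice, and the milder injuries share the spread of the IOT libraries. Clustering (2000 variable genes, 30 components, 20 neighbours, Leiden) left out the 8 genes, the marking genes and the listed genes, and a class was named from markers. Shares were compared on nuclei thinned to 1143 UMIs, which left out 2206 nuclei. Motifs and positions came from RefSeq (GRCm38.p6) and GENCODE vM21 (GRCm38), the build of the counts. On simulated counts with 200 of 14301 genes changed, the IOT test recovered 98% of changes of 1 log2 unit and 100% of 2, with 13 false calls. The simulation gave a gene the same change in every library and all genes the same dispersion. Measured differences varied between libraries, for Chl1 from 0.67 to 2.06 after IOT, so these rates do not carry over to the data. Alternatives were other marking rules, thinned nuclei, nuclei outside the injured cluster and that cluster against all other nuclei. Others left out the nuclei richest in glia markers or each library in turn, or used DESeq2 1.42.0, no TMM, no filter, no block or other cluster resolutions.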

Additional observations from a re-analysis of the deposited data

Results flagged for a closer look

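In the Drop-seq table of uninjured ganglia, which entered no test, the 42 marked nuclei held Flrt3 at 109.5 CPM (67.8 to 167, from 21 UMIs), against 19.4 CPM in unmarked nuclei of that table and 22.3 CPM (12.5 to 36.8) in the marked nuclei of the control 10x library. It was singled out as a signal in data outside the comparisons that lies above the level of the control library. Of these 42 nuclei, 9 lay in the injured cluster, and the 33 outside it held 28.8 CPM.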

How the results depend on the processing

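The libraries of a condition have no replicate numbers in the labels to pair, and the block used throughout is the library, in which marked and unmarked nuclei lie side by side. Without the library block, 3 of the 8 genes were called after IOT instead of 6, 0 after the milder injuries instead of 3, and 0 for the slope over days instead of 1. For the milder injuries, the count was 1 when 1 UMI of Atf3 or Sema6a was enough to mark a nucleus, 5 when both genes were required, 6 with thinned nuclei and 7 with the injured cluster set against all other nuclei. Among all genes these fits called 95 higher and 130 lower, 497 and 447, 161 and 142, and 827 and 675, against 214 and 158. For IOT against the milder injuries, where 0 genes were called, the counts were 1 with Atf3 alone, 1 with both genes, 2 with thinned nuclei, 1 outside the injured cluster and 3 with that cluster set against all other nuclei, and over all genes 28 higher and 5 lower, 35 and 11, 42 and 29, 0 and 4, and 142 and 104, against 1 and 1. The slope was called for 0 genes with thinned nuclei and for 0 with the injured cluster set against the rest. With 1 library left out at a time, the counts ranged from 5 to 6 after IOT, from 1 to 4 after the milder injuries, from 0 to 1 for their difference, from 0 to 7 for the slope (7 without day 2, and 0 without day 75, facial injury or scratch lesions) and from 7 to 8 for large against small classes. Apart from the slope without day 2, these counts are not set beside the calls over all genes in the same fits. Nor are those of the slope under the other settings, or of the milder injuries without the library block. They therefore do not tell a change in the 8 genes from a change in calls over all genes. The log2 difference turned its sign for Cd44 after IOT with thinned nuclei (0.55) and for the injured cluster against the rest (0.65). Outside the injured cluster it turned for Chl1 (−0.045), Ncam1 (−0.56) and Sdk2 (−0.24) after IOT and for Ncam1 after the milder injuries (−0.55), and for large against small classes it turned for Cntn5 with coarser clusters (−0.51) and Sdk2 with finer ones (−0.057). Fewer or other nuclei entered these fits, and the cause was not tested. Over all genes, IOT called 1422 higher and 1122 lower, against 1190 and 1282 without TMM, 1069 and 752 with DESeq2, and 171 and 95 without the library block. The sums of marked nuclei rest on 201 to 826 nuclei per injury library.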
